A study of Mus musculus with 17 samples.

Results

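A set of 10 genes that build mitochondria and keep their DNA was followed in bulk RNA-seq of mouse haematopoietic stem cells (HSCs): *Tfam*, *Polg*, *Polg2*, *Twnk*, *Ssbp1*, *Polrmt*, *Tfb2m*, *Nrf1*, *Ppargc1a* and *Ppargc1b*. They were picked by gene symbol from the 54838 Ensembl genes of the count files, and all 10 passed the filter on low counts, as did 24523 genes in all. The 17 libraries came from HSCs sorted from bone marrow of C57BL/6 Jrj mice as lineage-negative, cKit+, Sca1+, CD48-, CD150+ cells and collected in trizol. Old mice were over 18 months of age. They were either given Mito-Q at 2 mg/kg in 5 daily injections (old Mito-Q, n = 5) or served as old control (n = 3). Young mice were 8 to 12 weeks of age. They were either given CCCP at 0.3 mg/kg in 1 intraperitoneal injection (young CCCP, n = 5) or served as young control (n = 4). Mito-Q is a ubiquinone antioxidant that collects in mitochondria, and CCCP is a protonophore that dissipates the mitochondrial membrane potential. The labels do not say whether controls were injected with vehicle, how long the interval before sorting was, or whether each library was a separate mouse, so p-values here measure the spread between libraries, which may in part be technical. The labels name no transgene or deletion in any group.

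Mitochondrial DNA (mtDNA) is a small circular genome that encodes a few core subunits of the respiratory chain, while every protein that copies, packs and transcribes it is encoded in the nucleus. At the replication fork the Twinkle helicase (*Twnk*) unwinds the circle, the protein of *Ssbp1* coats the single strand, and polymerase gamma (catalytic subunit *Polg*, accessory subunit *Polg2*) copies it; transcription needs the RNA polymerase *Polrmt* with *Tfam* and *Tfb2m*, and *Tfam* also packs the DNA into nucleoids. *Nrf1*, the ETS-family factor GABP and the coactivators PGC-1α (*Ppargc1a*) and PGC-1β (*Ppargc1b*) are known for switching on these nuclear genes when cells make more mitochondria. HSCs are known for keeping oxidative metabolism low while they are quiescent, although they hold many mitochondria.

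Promoter letters are shown because GABP and *Nrf1* are the textbook activators of this set and their letters can be read directly. RefSeq windows on GRCm38.p6 (300 bases, from 250 before to 50 after each annotated start) existed for 9 of the 10 genes. The GABP letters CCGGAAG, searched on both strands, were present in 6 of the 9 genes, against 9.93% of the 27025 genes in the table and 8.86% of its 32851 windows. The 6 were *Tfam*, *Polg*, *Polg2*, *Twnk* (in the second of its annotated windows), *Polrmt* and *Ssbp1*. The *Nrf1* letters (GCGCA, any base, then GCGC, both strands) were present in 1 of the 9, *Polrmt*, as a pair of overlapping matches, against 5.19% of genes and 4.6% of windows. Neither was found in the windows of *Tfb2m*, *Nrf1* and *Ppargc1a*. A match describes the letters and not a bound site. In the stretches below, read 5′ to 3′ on the gene's own strand, capitals mark the matches: CCGGAAG or its reverse complement in every gene, and in *Polrmt* also the *Nrf1* letters as the second block of capitals.
Tfam, chr10:71238060-71238116, minus strand: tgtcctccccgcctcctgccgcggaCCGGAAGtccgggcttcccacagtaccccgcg
Polg, chr7:79466280-79466336, minus strand: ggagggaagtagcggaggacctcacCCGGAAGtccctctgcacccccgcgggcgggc
Polg2, chr11:106779538-106779591, minus strand: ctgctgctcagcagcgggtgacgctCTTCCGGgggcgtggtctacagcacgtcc
Twnk, chr19:45006423-45006523, plus strand: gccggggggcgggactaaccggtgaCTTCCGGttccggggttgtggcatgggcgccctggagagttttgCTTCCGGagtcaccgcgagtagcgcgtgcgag
Polrmt, chr10:79746572-79746649, minus strand: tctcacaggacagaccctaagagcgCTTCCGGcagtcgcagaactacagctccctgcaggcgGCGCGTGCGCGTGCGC
Ssbp1, chr6:40471396-40471452, plus strand: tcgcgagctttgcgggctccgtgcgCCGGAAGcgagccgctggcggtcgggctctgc
Counted from 0 at the annotated start, the GABP letters began at -47 in *Tfam*, -38 in *Polg*, -29 in *Polg2*, -43 in *Polrmt* and -47 in *Ssbp1*. In *Twnk* they began at -110 and -66. All 6 genes therefore carried a match within the last 110 bases before the RefSeq start of the window shown. The GENCODE boundaries given with each gene below differ from these starts. By them, the stretches of *Tfam*, *Polg*, *Twnk* and *Ssbp1* lie inside the gene.

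The libraries held between 5649611 reads in genes (young control 3) and 8120443 (young CCCP 1), so 3 reads, the limit that a count of 0 allows, corresponded to 0.294 to 0.651 CPM (counts scaled to library size with TMM factors). The libraries that stood apart from the rest numbered 3. Young CCCP 3 had 60.2% of its reads outside annotated features and a median Spearman correlation of 0.682 with the other libraries. Old control 1 had 58.4% of its reads outside features, and young control 3 had the fewest genes detected (17067) and a correlation of 0.803. Stem cell transcripts were present throughout: the 7 markers of the HSC gate summed to 1541 CPM in young CCCP 3 and up to 4253 CPM in young CCCP 2, among them *Kit* and *Hlf*. Transcripts of the surface markers sorted out (6 genes, among them *Ly6g* and *Cd48*) summed to between 0.882 and 81.2 CPM. The median sum was 23.93 CPM in old Mito-Q, 0.95 CPM in old control, 50.75 CPM in young CCCP and 8.35 CPM in young control. *Cd48* was at 0 in at least 1 library of each group. Its highest value was 17.4 CPM in old Mito-Q, 0.701 CPM in old control, 19 CPM in young CCCP and 4.61 CPM in young control. Of 10 neutrophil granule genes led by *S100a8*, *S100a9* and *Ngp*, the sum ran from 980.2 to 14180 CPM in old Mito-Q, from 1070 to 2387 CPM in old control, from 760 to 16210 CPM in young CCCP and from 415 to 2189 CPM in young control. Haemoglobin and other erythroid transcripts (9 genes, led by *Hbb-bs*, *Hba-a1* and *Hbb-bt*) summed to 71.6 to 1396 CPM over all libraries. The sum was 5.80 to 241.5 CPM for the 5 mast cell and basophil genes led by *Prss34*, *Cpa3* and *Mcpt8*, and 150.1 to 350.1 CPM for the 5 platelet genes led by *Itga2b*, *Pf4* and *Gp9*. The 8 immediate early genes led by *Fos*, *Nr4a1* and *Ier2*, which rise within minutes of a stimulus or of tissue handling, separated the groups without overlap: 12300 to 20640 CPM in old Mito-Q, 915.5 to 1473 CPM in old control, 258 to 562 CPM in young CCCP and 6965 to 12210 CPM in young control. Their part in the results below was not tested.

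All 10 genes were expressed. Per kilobase of principal transcript (GENCODE M21), *Ssbp1* averaged 33.9 CPM per kb and *Nrf1* 32.9 CPM per kb over the 17 libraries, above *Tfam* at 14.9, *Twnk* at 13.5, *Polg2* at 12.1 and *Tfb2m* at 11.8 CPM per kb. *Polrmt* (5.76 CPM per kb), *Ppargc1b* (4.11 CPM per kb) and *Polg* (3.98 CPM per kb) were lower, and *Ppargc1a* was lowest at 1.69 CPM per kb. The order of *Ssbp1* and *Nrf1* turned on the group: *Ssbp1* was above *Nrf1* in old control (62.7 and 23.4 CPM per kb), and below it in old Mito-Q (24.9 and 25.7), young CCCP (28 and 37.8) and young control (30.7 and 42.8). The place of *Nrf1* and *Polg2* depended on the length used: over the length of all annotated exons their levels were 6.01 and 4.18 CPM per kb, whereas *Ssbp1* had the highest mean over the 17 libraries (17.8 CPM per kb) and *Ppargc1a* the lowest (1.65 CPM per kb). *Ppargc1a* was lowest in each group by both lengths, and by all exons *Tfam* was above *Ssbp1* in old Mito-Q (15.6 and 13.1 CPM per kb). The mean of the accessory subunit *Polg2* was above that of the catalytic subunit *Polg* by principal transcript in each group. By all exons it was below *Polg* in young CCCP, at 4.47 and 5.14 CPM per kb. The exons of 3 members overlap those of a gene on the other strand: *Polg* with *Fanci* over 8.57% of its exon bases, *Polg2* with *Milr1* over 3.03% and *Twnk* with *Mrpl43* over 12.6%. The strand setting of the counting is not given in the sources used here, so reads of the pairs may be mixed there.

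**Figure D1:**
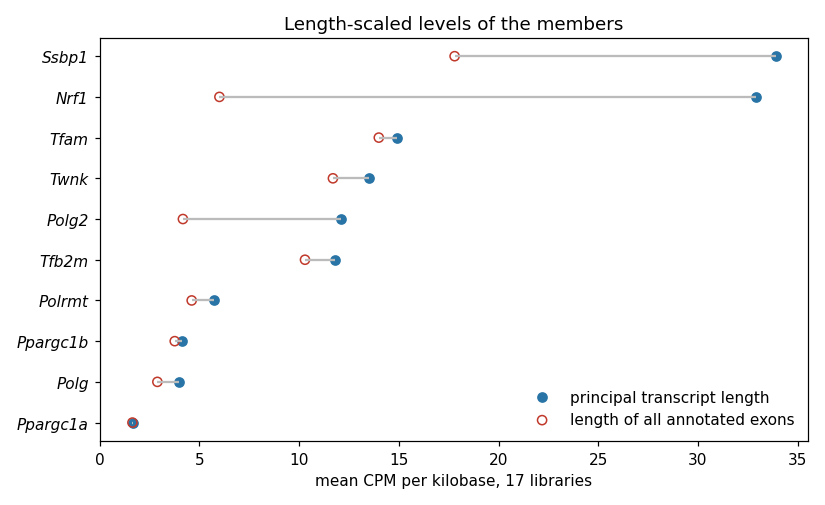
Mean level of each gene over 17 libraries, in CPM per kilobase (horizontal axis), by length of the principal transcript (filled points) and of all annotated exons (open points). Over all libraries pooled, *Ssbp1* has the highest and *Ppargc1a* the lowest mean by both lengths, and *Nrf1* moves from 32.9 to 6.01 CPM per kb with the longer length.

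The 10 genes differed in how steady they were between libraries. *Tfam* and *Tfb2m*, the transcription factors that act on mtDNA itself, were the steadiest, with coefficients of variation of 21.3% and 25.5% over the 17 libraries. Among the 500 genes nearest in mean level to each, these stood at the 1.2 and 0.8 percentiles of variation. The polymerase *Polrmt* (77.7%, percentile 90.4), *Ssbp1* (61.3%, percentile 93.4) and *Polg* (60.9%, percentile 81.2) varied most. *Twnk* (37.2%), *Nrf1* (46.2%), *Polg2* (52.2%), *Ppargc1b* (56.7%) and *Ppargc1a* (58.6%) lay between. The genes did not vary as a block: over 45 pairs, Spearman's rho across the 17 libraries ran from -0.68 (*Tfb2m* with *Ppargc1a*) to 0.57 (*Polg* with *Polrmt*), with a median of 0. These are descriptions across libraries that share groups, with no test.

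**Figure D2:**
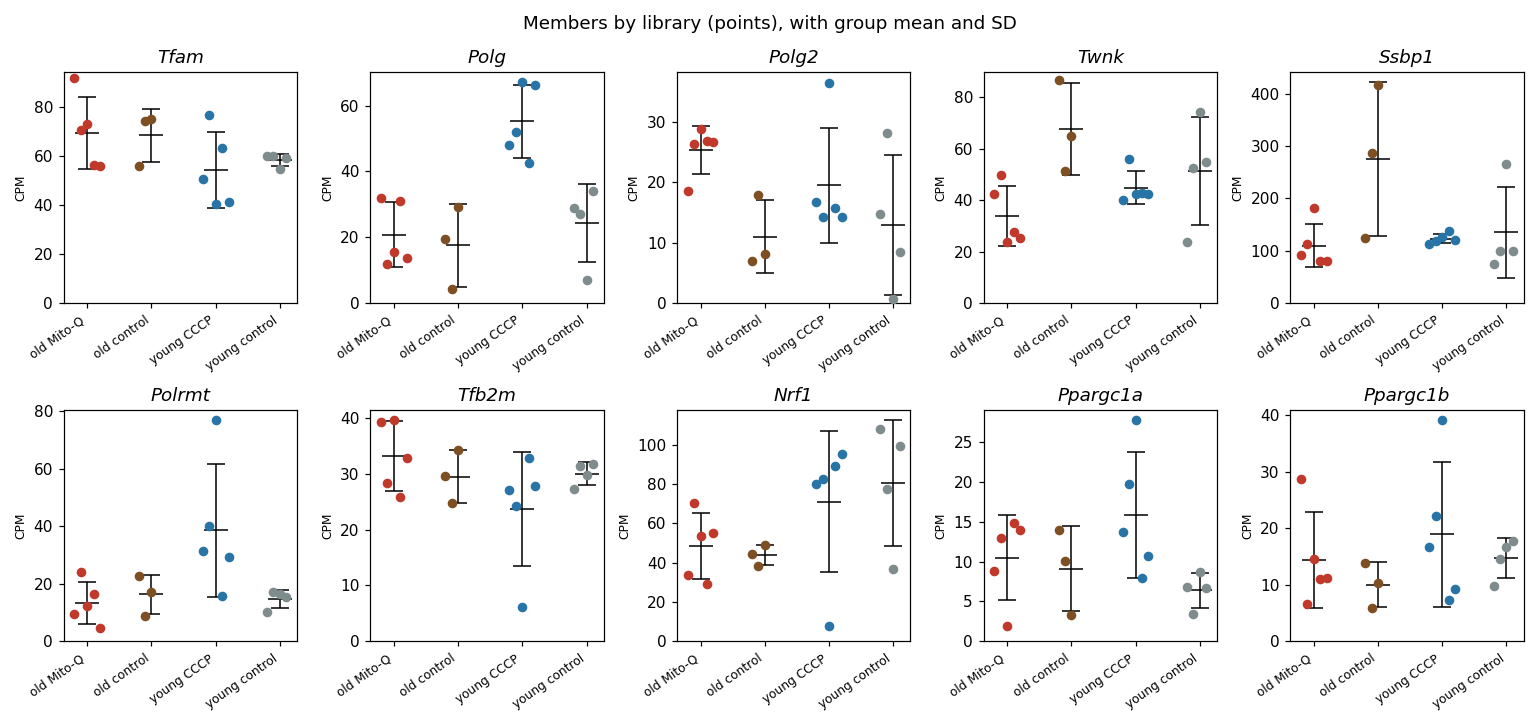
Normalised level (CPM, vertical axis, each panel with its own scale from 0) of the 10 genes in every library (points), by group, with the group mean and SD (bars). *Tfam* lies between 40.3 and 91.7 CPM in all 17 libraries, *Polg* in young CCCP (42.6 to 67.1 CPM) lies above young control, and *Ssbp1* is spread widely in old control (124 to 417 CPM).

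No gene of the 10 passed an adjusted p of 0.05 in any comparison by edgeR's quasi-likelihood test. DESeq2 also called 0 in each. At an unadjusted p below 0.05, edgeR had 1 of 10 in old control against young control, 2 of 10 in old Mito-Q against old control and 2 of 10 in young CCCP against young control. Over all 24523 genes tested, the adjusted threshold was passed by 1.69% (415 genes), 0.542% (133 genes) and 0.718% (176 genes) in these comparisons, in that order, and the unadjusted one by 14.2%, 10% and 11.2%. Groups did not overlap for 0, 2 and 1 of the 10, against 11.5%, 6.06% and 4.65% of all genes. The median log2 fold change of the 10 was 0.07, 0.15 and 0.14, beside 0.16, -0.12 and 0.21 over all genes tested. Both treatments share their control libraries with the comparison of ages, so the 3 sets of values are not independent.

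**Figure D3:**
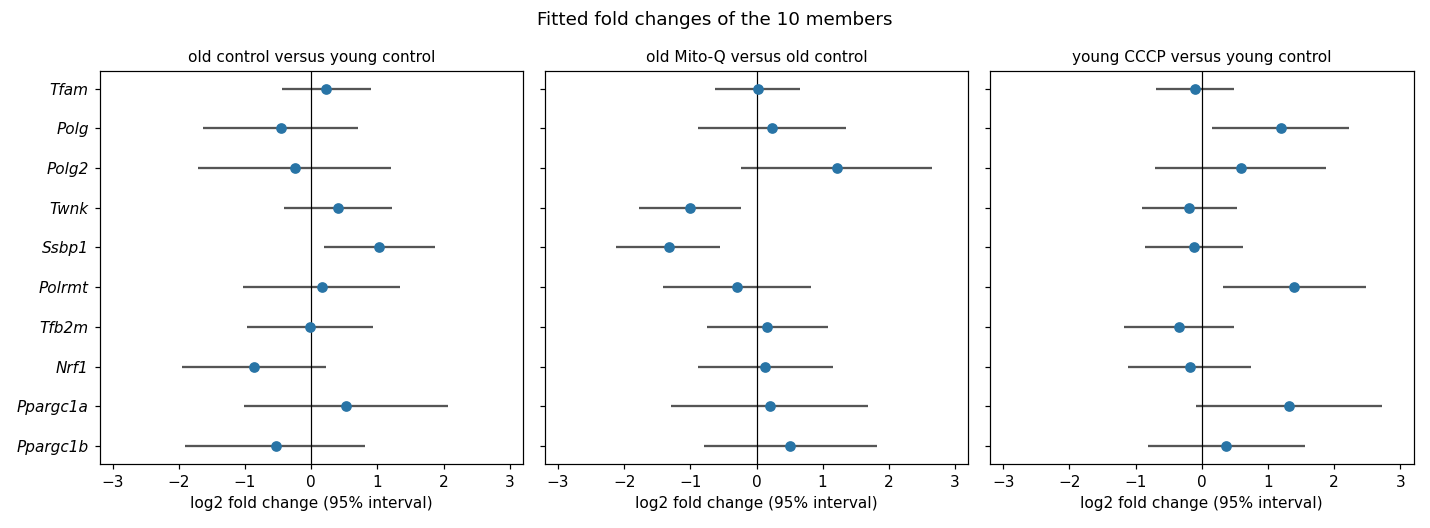
Fitted log2 fold change (horizontal axis) of the 10 genes in the 3 comparisons, as points with 95% intervals (bars). The *Tfam* intervals are among the narrowest, from -0.44 to 0.90 for old control against young control, and *Ssbp1* lies above 0 with age (1.03) and below 0 with Mito-Q (-1.33).

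*Tfam*, the packaging protein and transcription factor of mtDNA (ENSMUSG00000003923, GRCm38 chromosome 10, 71225464 to 71238280, minus strand), had 91.7, 70.6, 72.9, 56.2 and 55.8 CPM in old Mito-Q and 55.9, 74.3 and 75.2 CPM in old control. It had 50.8, 76.8, 40.3, 63.2 and 41.3 CPM in young CCCP and 59.9, 60.1, 54.9 and 59.0 CPM in young control. The groups overlapped in each comparison, and the young control libraries lay closest together. Its log2 fold change was 0.23 (SE 0.33, 95% interval -0.44 to 0.90, adjusted p = 0.833) for old control against young control. It was 0.02 (SE 0.31, interval -0.63 to 0.66, adjusted p = 0.998) for old Mito-Q against old control and -0.10 (SE 0.29, interval -0.69 to 0.49, adjusted p = 0.946) for young CCCP against young control. A doubling, a log2 change of 1, lay outside each of these intervals. Of 11809 protein-coding genes with an average log2 CPM above 2, those with the pattern most like *Tfam* over the 17 libraries were *Isoc2b* (Spearman's rho 0.83), *Inka1* (0.82) and *Psmd6* (0.82). Pearson's r on the log2 scale was lower, at 0.56, 0.6 and 0.68. These are the highest values of a large search, with no test.

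The other factor of mtDNA transcription initiation, *Tfb2m* (ENSMUSG00000026492, chromosome 1, 179528055 to 179546267, minus strand), was as even. It averaged 33.2 ± 6.24 CPM in old Mito-Q (SD, n = 5), 29.5 ± 4.76 CPM in old control (n = 3), 23.6 ± 10.2 CPM in young CCCP (n = 5) and 30.0 ± 2.05 CPM in young control (n = 4). Young CCCP 3 was the one low library, at 6.12 CPM against 24.3 to 32.8 CPM in the other 4 of its group. The log2 fold changes were -0.02 with age, 0.16 with Mito-Q and -0.34 with CCCP, with adjusted p-values of 0.995, 0.957 and 0.822.

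*Polrmt*, the mitochondrial RNA polymerase that also lays down replication primers (ENSMUSG00000020329, chromosome 10, 79736123 to 79746581, minus strand), had 31.3, 40, 76.8, 15.8 and 29.2 CPM in young CCCP, against 10.1, 17.1, 16.3 and 15.4 CPM in young control. Of the 5 young CCCP libraries, 4 lay above every young control library, and young CCCP 4 lay among them. The fitted log2 fold change was 1.40 (SE 0.52, 95% interval 0.32 to 2.48), with an unadjusted p of 0.0128 and an adjusted p of 0.327. Without young CCCP 3, which is also one of the libraries that stood apart, it was 0.99 (adjusted p = 0.537). In the old groups *Polrmt* had 9.51, 24.2, 12.2, 16.4 and 4.68 CPM with Mito-Q and 22.7, 8.93 and 17.3 CPM in old control, which overlapped (log2 fold change -0.29, adjusted p = 0.93). The difference of old control from young control was 0.16 (adjusted p = 0.947).

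*Polg*, the catalytic subunit of the mtDNA polymerase (ENSMUSG00000039176, chromosome 7, 79446231 to 79466362, minus strand), had 48.0, 52.0, 67.1, 42.6 and 66.2 CPM in young CCCP, against 28.8, 27.0, 7.16 and 34.1 CPM in young control. All 5 young CCCP libraries were above all 4 young control libraries. This gave a log2 fold change of 1.19 (SE 0.51, 95% interval 0.15 to 2.23), with an unadjusted p of 0.0269 and an adjusted p of 0.387. Without young control 3, the lowest of its group, the log2 fold change was 0.86 (adjusted p = 0.756). *Polg* had 31.8, 11.8, 15.6, 31.1 and 13.7 CPM in old Mito-Q and 19.4, 4.18 and 29.3 CPM in old control. These overlapped (log2 fold change 0.23, adjusted p = 0.95), and the log2 fold change of old control against young control was -0.46 (adjusted p = 0.80).

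*Polg2*, the accessory subunit that holds the polymerase on its template (ENSMUSG00000020718, chromosome 11, 106768253 to 106779537, minus strand), had 18.5, 26.4, 28.8, 26.9 and 26.7 CPM in old Mito-Q, against 6.90, 17.9 and 8.11 CPM in old control. Every old Mito-Q library was above every old control library, the nearest pair being 18.5 CPM in old Mito-Q and 17.9 CPM in old control. On the log2 scale the fold change was 1.21 (SE 0.70, 95% interval -0.23 to 2.66, adjusted p = 0.594), so that its interval included 0. In the young groups it had 16.7, 14.3, 36.5, 15.7 and 14.2 CPM with CCCP and 14.8, 28.1, 0.651 and 8.43 CPM in young control, where the value of young control 3 came from 3 reads. The groups overlapped (log2 fold change 0.59, adjusted p = 0.793), as did old control with young control (-0.25, adjusted p = 0.926).

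*Twnk*, the replicative helicase (ENSMUSG00000025209, chromosome 19, 45005663 to 45012762, plus strand), had 42.5, 49.7, 23.8, 27.7 and 25.2 CPM in old Mito-Q, against 86.7, 51.3 and 64.9 CPM in old control. All 5 old Mito-Q libraries were below all 3 old control libraries, by 49.7 CPM in old Mito-Q against 51.3 CPM in old control at the nearest. This came to a log2 fold change of -1.01 (SE 0.37, 95% interval -1.77 to -0.24), with an unadjusted p of 0.0119 and an adjusted p of 0.345. *Twnk* averaged 44.8 ± 6.40 CPM in young CCCP (SD, n = 5) and 51.4 ± 20.9 CPM in young control (n = 4), with a log2 fold change of -0.19 (adjusted p = 0.90). Old control was 0.41 above young control on the log2 scale (adjusted p = 0.73).

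*Ssbp1*, the single-stranded DNA-binding protein of the fork (ENSMUSG00000029911, chromosome 6, 40471352 to 40484700, plus strand), gave the lowest unadjusted p of the 10 in both comparisons of old cells. It had 92.5, 113, 181, 81.4 and 81.0 CPM in old Mito-Q and 124, 287 and 417 CPM in old control. It had 113, 119, 126, 137 and 121 CPM in young CCCP and 75.1, 100, 265 and 99.5 CPM in young control. Of the 3 old control libraries, 2 were above every other library of the series, and in each comparison the groups overlapped through old control 1, old Mito-Q 3 or young control 3. The log2 fold change was 1.03 for old control against young control (SE 0.41, 95% interval 0.20 to 1.87, unadjusted p = 0.0171, adjusted p = 0.235). It was -1.33 for old Mito-Q against old control (SE 0.38, 95% interval -2.12 to -0.55, unadjusted p = 0.00181, adjusted p = 0.174). It was -0.12 for young CCCP against young control (adjusted p = 0.945), and turned to 0.41 without young control 3.

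Whether *Ssbp1* passed the adjusted threshold in edgeR depended on single libraries. Without young control 3, the difference of old control from young control was 1.60 with an adjusted p of 0.029. Without old control 1, the difference of old Mito-Q from old control was -1.75 with an adjusted p of 0.0276. With both of these and young CCCP 3 left out, the values were 1.96 (adjusted p = 0.00023) and -1.71 (adjusted p = 0.000466). The only old control libraries then left, at 287 and 417 CPM, held the highest *Ssbp1* values of the series. More genes were also called over the whole set in that setting. Without old control 3, the highest library, the differences were 0.62 (adjusted p = 0.661) and -0.90 (adjusted p = 0.586). Over the 17 libraries the genes of most similar pattern, looked up after the values of *Ssbp1* were seen, were *Rala* (Spearman's rho 0.92), the spliceosome gene *Snrpd3* (0.90) and the mitochondrial ribosome gene *Mrpl33* (0.86). Their Pearson's r on the log2 scale was 0.73, 0.93 and 0.76, with no test.

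*Nrf1*, the transcription factor (ENSMUSG00000058440, chromosome 6, 30047988 to 30153458, plus strand), had 44.4, 38.4 and 48.9 CPM in old control, against 108, 77.4, 36.9 and 99.5 CPM in young control. The old control libraries lay close together below 3 of the 4 young control libraries, and young control 3 was lower than all of them. Its fitted log2 fold change was -0.87 (SE 0.53, 95% interval -1.96 to 0.22, adjusted p = 0.487), and without young control 3 it was -1.12 (adjusted p = 0.322). *Nrf1* had 33.6, 70.2, 53.7, 29.0 and 55.3 CPM in old Mito-Q, overlapping old control (log2 fold change 0.13, adjusted p = 0.973). It had 79.9, 82.4, 8.03, 89.3 and 95.2 CPM in young CCCP, where young CCCP 3 alone was low, and the difference from young control was -0.18 (adjusted p = 0.934).

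Of the coactivators, *Ppargc1a* (ENSMUSG00000029167, chromosome 5, 51454250 to 51567726, minus strand) had 13.7, 19.7, 27.7, 7.92 and 10.7 CPM in young CCCP, against 6.81, 3.39, 8.68 and 6.72 CPM in young control. The groups overlapped only in young CCCP 4, which lay below young control 3, with a log2 fold change of 1.32 (SE 0.68, 95% interval -0.08 to 2.73, adjusted p = 0.485). It averaged 10.5 ± 5.33 CPM in old Mito-Q (SD, n = 5) and 9.11 ± 5.34 CPM in old control (n = 3), a log2 fold change of 0.20 (adjusted p = 0.973), and old control against young control gave 0.52 (adjusted p = 0.834). *Ppargc1b* (ENSMUSG00000033871, chromosome 18, 61298136 to 61400431, minus strand) averaged 14.4 ± 8.45 CPM in old Mito-Q (n = 5), 10 ± 3.97 CPM in old control (n = 3), 18.9 ± 12.8 CPM in young CCCP (n = 5) and 14.7 ± 3.53 CPM in young control (n = 4). Its log2 fold changes were -0.54 with age, 0.51 with Mito-Q and 0.37 with CCCP, with adjusted p-values of 0.797, 0.881 and 0.88, and its groups overlapped in each comparison.

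The members with an unadjusted p below 0.05 or without overlap can be set beside the neutrophil marker sums of the same comparisons, which overlapped between groups. The sums were 9484, 760, 13610, 16210 and 5019 CPM in young CCCP, where *Polg* and *Polrmt* were high, against 2189, 436.6, 415 and 592.5 CPM in young control. They were 2339, 980.2, 9678, 5676 and 14180 CPM in old Mito-Q, where *Twnk* and *Ssbp1* were low and *Polg2* was high, against 1070, 2387 and 2315 CPM in old control. By edgeR all 10 marker genes were positive with CCCP and 1 was called. With Mito-Q 9 were positive and 0 were called. *Prtn3* went the other way with Mito-Q, averaging 649 CPM against 1010 CPM in old control. In sorted bulk cells, fewer cells of a type and less RNA per cell cannot be told apart. Their part in these results was not tested.

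The wider machinery was read from lists of genes that act with the 10. Among 18 genes of mtDNA replication and repair, 0 passed the adjusted threshold in any comparison by edgeR, and DESeq2 called 1 with age and 0 with either treatment. Over all genes too, DESeq2 called more than edgeR in each comparison. Its counts in this list and those below therefore cannot be set against the edgeR shares. No DESeq2 share over all genes is given here, so whether its list counts are high cannot be read from them. Unadjusted edgeR p-values below 0.05 numbered 3 with age, 0 with Mito-Q and 2 with CCCP. Over all genes tested the shares were 14.2%, 10% and 11.2%, which are the background for the lists below too. The list's median log2 fold change was -0.01, -0.44 and 0.35 in the same order. With CCCP 16 of 18 were positive (88.9%, against 58.7% of all genes tested). *Rnaseh1*, which removes RNA from replication intermediates, averaged 58.1 ± 20.2 CPM in old control (n = 3) and 32.8 ± 2.11 CPM in young control (n = 4), with no overlap (log2 fold change 0.82, adjusted p = 0.30). *Lonp1*, the matrix protease known to degrade free TFAM protein, averaged 94.0 ± 23.6 CPM in young CCCP (n = 5) and 52.5 ± 17.2 CPM in young control (n = 4), with no overlap (log2 fold change 0.84, adjusted p = 0.427).

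Among 15 genes of nucleotide supply to mitochondria, 0 were called by edgeR in any comparison. Below an unadjusted p of 0.05 were 5, 4 and 1 for age, Mito-Q and CCCP, against 14.2%, 10% and 11.2% of all genes tested. DESeq2 called 5, 1 and 0. The medians were -0.09, 0.05 and -0.01. *Rrm1*, the large subunit of ribonucleotide reductase, averaged 90.4 ± 23.6 CPM in old control (n = 3) and 262 ± 122 CPM in young control (n = 4). The groups did not overlap and the log2 fold change was -1.53 (SE 0.43, adjusted p = 0.0689). With 1 library left out it was called in 2 of 17 settings, without young control 3 (-1.79, adjusted p = 0.0223) and without young CCCP 3 (-1.53, adjusted p = 0.014). Young CCCP 3 is in neither group of this comparison, and the log2 fold change was unchanged without it. In the other 15 the adjusted p reached 0.394, without old control 3 (-1.37). *Rrm1* was called by DESeq2 (adjusted p = 0.0169), without the filter (0.00952) and without the 3 libraries that stood apart (0.000781), but not with library totals (0.145).

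Of 19 genes of mitochondrial transcription and RNA handling, 18 were tested and 1 rose with age: *Hsd17b10*, a subunit of the complex that cuts transfer RNAs out of mitochondrial transcripts and a dehydrogenase in its own right. It averaged 713 ± 395 CPM in old control (n = 3) and 231 ± 8.10 CPM in young control (n = 4), with a lowest old control library of 281 CPM and a highest young control library of 238 CPM. Its log2 fold change was 1.63 (SE 0.33, adjusted p = 0.00684), where 0.522% of all genes tested were called higher. The call was lost without old control 2 (1.54, adjusted p = 0.0835) and without old control 3 (1.24, adjusted p = 0.19). *Hsd17b10* averaged 407 ± 95.8 CPM in old Mito-Q (n = 5), a log2 fold change of -0.81 from old control (adjusted p = 0.355). The list's medians were -0.27, 0.18 and -0.03 for age, Mito-Q and CCCP, and 0 of its genes were called in either treatment by edgeR, with 2 in each at an unadjusted p below 0.05. DESeq2 called 3, 0 and 1.

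Of 25 regulators of biogenesis, 1 fell with age: *Atf2*, a CREB-family transcription factor known for inducing *Ppargc1a* in brown fat. It averaged 45.1 ± 8.09 CPM in old control (n = 3) and 123 ± 34.2 CPM in young control (n = 4), without overlap. The log2 fold change was -1.45 (SE 0.37, adjusted p = 0.0391), where 1.17% of genes were called lower. The log2 fold change stayed between -1.62 and -1.26 with any single library left out, but the adjusted p was above 0.05 for 12 of the 17, the most being 0.258 without old control 2. It was 0.0522 with library totals and 0.0799 without the filter. In the age comparison 22 of the 25 regulators were negative (12% positive, against 55.4% of all genes tested), with a median of -0.48 beside 0.16 over all genes. Without the 3 libraries that stood apart the median of all genes turned negative, so this contrast depends on the libraries used. The list was not split into activators and repressors, so its signs and medians give no direction of biogenesis. Of the regulators, 6 were below an unadjusted p of 0.05, where 14.2% of all genes tested were, and DESeq2 called 3. With Mito-Q 19 of 25 were positive (76%, against 44.9% of all genes tested) and 0 were called by edgeR, 2 being below an unadjusted p of 0.05 and DESeq2 calling 0, with a median of 0.27. Under the other scalings 15 of 25 were positive. *Atf2* averaged 92.0 ± 26.1 CPM in old Mito-Q (n = 5), above every old control library (log2 fold change 1.02, adjusted p = 0.30). The age and Mito-Q comparisons share the old control libraries.

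With CCCP, 1 regulator fell. *Mef2c*, a MADS-box transcription factor, averaged 228 ± 50.4 CPM in young CCCP (n = 5) and 486 ± 161 CPM in young control (n = 4), without overlap. The log2 fold change was -1.09 (SE 0.25, adjusted p = 0.0343), where 0.652% of genes were called lower. The adjusted p was above 0.05 with any of 11 of the 17 libraries left out, the most being 0.241 without young control 3 (log2 fold change -0.84). It was 0.126 with library totals and 0.0736 without the 3 libraries that stood apart. The median of the regulators with CCCP was 0.04, and DESeq2 called 2. Of the regulators, 5 were below an unadjusted p of 0.05, where 11.2% of all genes tested were.

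**Figure D4:**
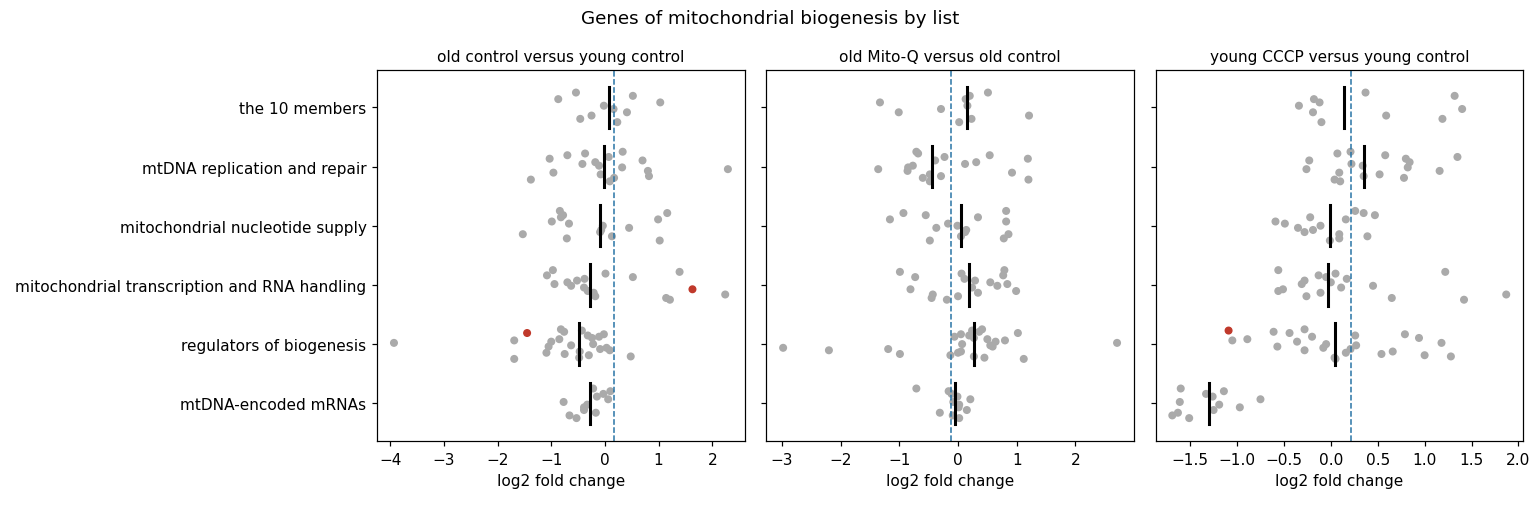
Log2 fold change (horizontal axis) of every tested gene (points) of the 10 members and of each list in the 3 comparisons. Thick lines mark list medians, dashed lines the median of all genes tested, and red points the genes with an adjusted p below 0.05 (*Hsd17b10*, *Atf2* and *Mef2c*). With CCCP, all 12 mtDNA-encoded mRNAs lie below 0.

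The product of this machinery, the mRNAs made from mtDNA, was measured in the same libraries. Summed over 13 genes they came to 10060, 11820, 26800, 8420 and 13020 CPM in old Mito-Q and 6100, 18240 and 16270 CPM in old control. They came to 4974, 6421, 4682, 7909 and 10470 CPM in young CCCP and 8894, 9685, 31160 and 7566 CPM in young control. Young control 3 was the highest library of all and old Mito-Q 3 the next, and the groups overlapped in each comparison. By edgeR 0 of the 12 tested were called in any comparison, and the numbers below an unadjusted p of 0.05 were 0, 0 and 7. DESeq2 also called 0, but with CCCP it gave *mt-Nd2* (log2 fold change -1.63) no adjusted p, so that gene could not be called there. With CCCP all 12 were negative, with a median log2 fold change of -1.30 beside 0.21 over all genes, and 7 were lower at an unadjusted p below 0.05, where 4.8% of all genes were. The mtDNA genes were counted very unevenly, so the sums rest on the most counted. In young control *mt-Co1* and *mt-Cytb* averaged 5420 and 4300 CPM. There *mt-Nd4l*, *mt-Co3*, *mt-Co2* and *mt-Atp6* averaged 5.30, 4.85, 2.81 and 1.83 CPM. In young CCCP *mt-Atp6* had 3 to 5 reads per library, close to the limit of counting.

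That difference rested on young control 3. Without that library the median of the 12 was -0.32 and 0 were below an unadjusted p of 0.05. The 12 mRNAs moved together on this library, so they cannot be read as 12 independent results. *mt-Nd2* and *mt-Nd5*, which encode subunits of complex I, averaged 175 ± 57.3 and 485 ± 101 CPM in young CCCP (n = 5), and 570 ± 662 and 1110 ± 897 CPM in young control (n = 4). Their log2 fold changes were -1.69 (adjusted p = 0.146) and -1.19 (adjusted p = 0.188). Without the filter on low counts both were called by edgeR, at -1.70 (adjusted p = 3.65e-05) and -1.18 (adjusted p = 0.00442). The filter had kept both genes, so their fold changes hardly moved. Without young control 3, with the filter, they were -0.47 (adjusted p = 0.878) and -0.46 (adjusted p = 0.822). With age the median of the mtDNA mRNAs was -0.27, and without young control 3 it was 0.88.

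Across libraries the 10 genes were set against the summed mtDNA mRNAs, on log2(CPM + 1), with 10 relations tested by permutation. *Polg* was lower where mtDNA mRNAs were higher (Spearman's rho -0.71, permutation p = 0.00179, adjusted p = 0.0179, Pearson's r -0.73, permutation p = 0.00079, adjusted p = 0.0079, 17 libraries). Without the 2 libraries farthest from the median, young control 3 and old Mito-Q 3, rho was -0.61 (permutation, adjusted p = 0.0858) and r was -0.68 (adjusted p = 0.0314). Centred on the group means, rho was -0.58 (permutation, adjusted p = 0.229) and r was -0.60 (adjusted p = 0.272), so the relation did not pass the threshold within groups. The young CCCP libraries had the highest *Polg* values and 3 of the 4 lowest mtDNA sums. Groups of 3 to 5 libraries are too small for a correlation of their own.

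*Ssbp1* showed the opposite sign. Its rho was 0.30 (permutation, adjusted p = 0.344) and its r 0.59 (adjusted p = 0.0466) over the 17 libraries. Centred on the group means, rho was 0.78 (permutation p = 0.00667, adjusted p = 0.0667) and r was 0.86 (adjusted p = 0.0623). In each of old Mito-Q and young control, the library with the highest mtDNA sum, replicate 3 in both, also had the highest *Ssbp1*, and in old control the library with the lowest sum had the lowest. Without young control 3 and old Mito-Q 3 the centred rho was 0.47 (adjusted p = 0.296, permutation), and the uncentred one 0.01. *Ppargc1a* had rho -0.50 (permutation, adjusted p = 0.138) and r -0.58 (adjusted p = 0.0466), with r at -0.52 (adjusted p = 0.114) without those libraries. *Polrmt* had rho -0.54 and *Tfb2m* 0.48 (both with an adjusted permutation p of 0.138), and *Tfam* had 0.31 (adjusted p = 0.344). Without those libraries *Polrmt* had rho -0.56 and r -0.67 (adjusted permutation p of 0.11 and 0.0314), and *Ppargc1b* had rho -0.63 and r -0.64 (0.0858 and 0.0314). For the other 4 genes, *Ppargc1b* among them, rho over all 17 libraries lay between -0.39 and 0.01, with adjusted permutation p-values of 0.235 or more.

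**Figure D5:**
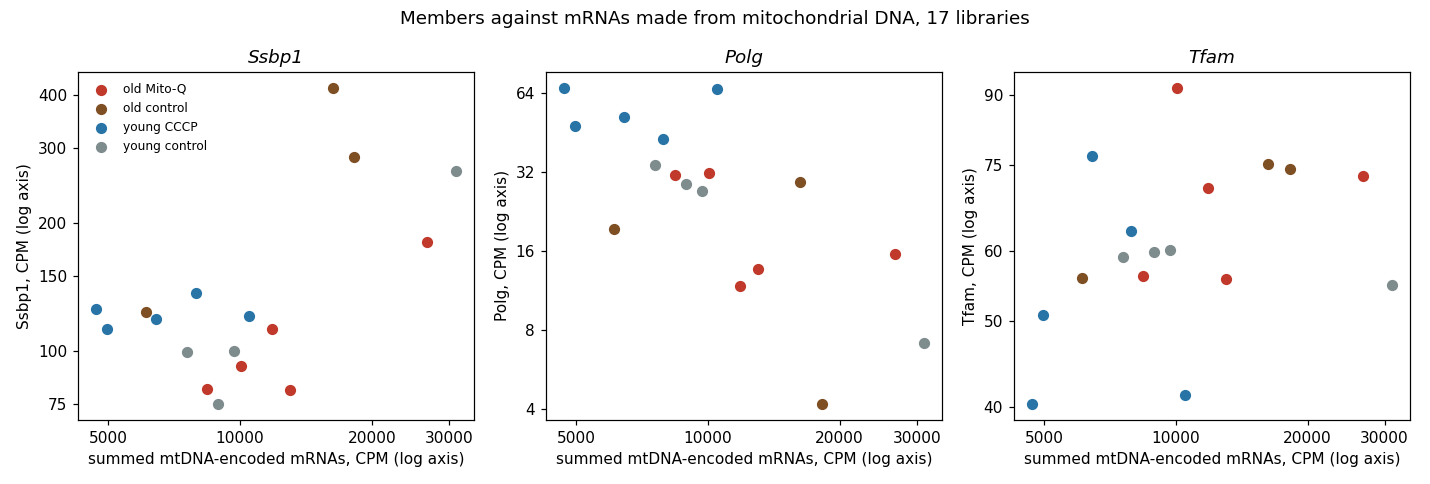
Level of *Ssbp1*, *Polg* and *Tfam* (CPM, vertical log axes) against the summed mtDNA-encoded mRNAs (CPM, horizontal log axes) in the 17 libraries, coloured by group. *Polg* declines along the axis (rho -0.71), *Tfam* shows no passed relation (rho 0.31), and the 3 highest *Ssbp1* values (265, 287 and 417 CPM) lie at mtDNA sums of 31160, 18240 and 16270 CPM.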

How the data were processed

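RNA-seq of sorted HSCs was measured in 17 libraries, and the authors deposited raw counts of reads per Ensembl gene for each. Reads were trimmed with Trim Galore and aligned with STAR 2.7 to GRCm38, per the submitters' processing notes. The counting program, its annotation and strand setting are not given in the sources used here. Footer entries for reads in no gene were kept out of library sizes. Names, positions and lengths came from GENCODE M21, which named 54809 of 54838 IDs. Genes were filtered with filterByExpr (minimum count 10), scaled by TMM and tested with edgeR 4.0.16 (R 4.3.3, limma 3.58.1) in 1 quasi-likelihood fit of all groups, with Benjamini-Hochberg adjusted p below 0.05 as a call. The fit was tested on simulated data. DESeq2 1.42.0, other scalings, no filter, a block and left-out libraries were alternatives. Correlations used 100000 permutations. Intervals of fold changes used the fit's degrees of freedom. Named were all 10 members, called genes of each list or else the 2 of lowest p, the 3 genes most like *Tfam* and the 3 highest of each marker list; some genes under this rule are not reported here. Members and lists were chosen with earlier results of these data known. No library of a group duplicated another (chi-square per degree of freedom at least 18.2).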

Additional observations from a re-analysis of the deposited data

Results flagged for a closer look

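In 30 groups of 4 or 5 libraries (10 genes in 3 groups), Dixon's ratio marked 5 values, in 4 libraries, as far from the others of their group, where chance marks about 1 in 20 groups. *Nrf1* was 8.03 CPM in young CCCP 3, against 79.9 to 95.2 CPM in the other libraries of that group. *Polg2* was 36.5 CPM in the same library, against 14.2 to 16.7 CPM. *Ssbp1* was 265 CPM in young control 3, against 75.1 to 100 CPM. Both libraries are among those that stood apart over all genes. *Polg2* was 18.5 CPM in old Mito-Q 1, against 26.4 to 28.8 CPM, and *Twnk* was 56.1 CPM in young CCCP 2, against 40.2 to 42.8 CPM. No value in these groups was left out of the main results.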

How the results depend on the processing

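The number of members called was 0 in each comparison, and was 1 (*Ssbp1*) in the age and Mito-Q comparisons without the 3 libraries that stood apart. Leaving out 1 library at a time gave 0 to 1 in both, and 0 throughout with CCCP. Each of the 17 libraries was left out in turn for every comparison, also those in neither group compared. Such a library acts only through the filter, the scaling and the shared spread, so part of the stability was built in. The counts out of 17 for *Rrm1*, *Atf2* and *Mef2c* include such libraries too. Of 510 member values with 1 library left out, 482 kept sign and call, 26 changed sign while uncalled and 2 became called. Of 180 under the other alternatives the numbers were 160, 18 and 2. The sign changes were, with age, *Tfb2m* (0.06 with DESeq2's size factors and with DESeq2, 0.02 with library totals, 0.03 with the block) and *Polrmt* (-0.09 without the 3 libraries). With Mito-Q they were *Tfam* (-0.05 with DESeq2's size factors and with DESeq2, -0.03 with library totals, -0.13 without the 3 libraries), *Nrf1* (-0.04 with the block) and *Polrmt* (0 without the 3). With CCCP they were *Tfam* (0.05) and *Ssbp1* (0.08) with library totals, *Ssbp1* with the block (0.13), and without the 3 libraries *Ssbp1* (0.43), *Polg2* (-0.16), *Twnk* (0.06) and *Ppargc1b* (-0.01). With 1 library left out, the ranges that crossed 0 were, with age, *Polg2* -0.82 to 0.45, *Tfb2m* -0.17 to 0.07 and *Polrmt* -0.11 to 0.41. With Mito-Q they were *Tfam* -0.16 to 0.11, *Polg* -0.21 to 0.87, *Ppargc1a* -0.15 to 0.60 and *Nrf1* -0.04 to 0.27. With CCCP they were *Twnk* -0.43 to 0.02, *Ssbp1* -0.32 to 0.41, *Nrf1* -0.41 to 0.11 and *Ppargc1b* -0.09 to 0.55.

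Over all genes, calls with age numbered 415, 1418 by DESeq2, 2520 without the 3 libraries (where the median of all genes moved to -0.37, against 0.16) and 125 to 755 with 1 library left out, the lowest without old control 2 and the highest without young CCCP 3. With Mito-Q they numbered 133, 545 by DESeq2, 1135 without the 3 libraries and 79 to 219 with 1 left out. With CCCP they numbered 176, 662 by DESeq2, 324 without a filter and 129 to 196 with 1 left out. Other scalings moved the median of all genes by up to about 0.1, to 0.33 with library totals for CCCP, against 0.21. Calls over the 5 lists (2 with age, 0 with Mito-Q, 1 with CCCP) were 1 with age by library totals, 12 by DESeq2, 13 without the 3 libraries and 0 to 5 with 1 library left out. With Mito-Q they were 1 by DESeq2, 7 without the 3 libraries and 0 to 2 with 1 left out. With CCCP they were 0 by library totals, 6 without a filter, 3 by DESeq2, 0 without the 3 libraries and 0 to 1 with 1 left out. These list alternatives, and the centred correlation without 2 libraries, were chosen after seeing the data. By Spearman's rho, 1 member (*Polg*) passed against the mtDNA mRNAs, and 0 passed under each alternative; by Pearson's r others passed, as given with the correlations. The cause of these changes was not tested.

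Replicate numbers are shared between groups in the labels. Deviations from group means of 22 same-numbered pairs correlated between -0.10 and 0.25 (median 0.04), and 5 exceeded 0.1. Those of 85 pairs of different number correlated between -0.26 and 0.20 (median 0), and 7 exceeded 0.1. Whether the numbers mark a pairing of libraries was not tested. With replicate number as a block, genes called were 404, 130 and 168, members called 0 in each comparison, and listed genes called 2, 0 and 0, *Mef2c* being at -1.03 (adjusted p = 0.0612) with CCCP. Depth limits the lowest genes most: *Polg2* had 3 reads in young control 3.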
